A study of Mus musculus with 20 samples.

Results

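Replication-dependent histone genes make the bulk of the histone protein that packs newly copied DNA. They were taken here as every gene symbol of the form Hist1 to Hist4 followed by a class, H1, H2A, H2B, H3 or H4. This gave 68 of the 23432 gene symbols counted in 12 RNA libraries of sorted embryonic mouse skin cells: 6 H1, 18 H2A, 19 H2B, 12 H3 and 13 H4 genes. Of the 68, 60 had a count in at least 1 of the 9 epidermal libraries, 44 had a count in every one of them, and 8 were at 0 in all 12 libraries. One member, Hist3h2bb-ps, is annotated as a transcribed pseudogene and the other 67 as protein coding.

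Core histones H2A, H2B, H3 and H4 form the nucleosome, in which a tetramer of H3 and H4 is joined by dimers of H2A and H2B, while H1 binds the linker DNA between nucleosomes. Transcription of these genes is tied to S phase of the cell cycle, through the coactivator Npat, and their mRNAs end in a conserved stem-loop bound by Slbp in place of a poly(A) tail. Some members can also give polyadenylated transcripts, and a few, among them Hist1h1t, Hist1h2aa and Hist1h2ba, are known mainly from the testis. In embryonic skin the epidermis grows from a single layer of dividing cells into a stratified sheet, and p63, the product of Trp63, is a main regulator of that change.

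The libraries form 4 groups of 3. Epidermal cells came from back skin at embryonic day 9 (E9) and 13 (E13) of embryos labelled {delta}Np63 -GFP KI-Het (Het) and at E13 of embryos labelled {delta}Np63 -GFP KI-KO (KO), and dermal cells came from Het embryos at E13. All embryos thus carried the GFP knock-in, the Het groups serve as controls, and no wild-type library was analysed here. Sorting used GFP for the epidermal cells and a CD140a antibody for the dermal ones. The labels do not say whether embryos were pooled or whether replicates are separate embryos, so that p-values measure only the spread between these samples. Epidermal RNA was freed of ribosomal RNA, whereas dermal RNA was selected with oligo(dT), which captures poly(A) tails. The questions were how the histone classes compare between E9 and E13 epidermis and between KO and Het epidermis, and the dermis is given apart.

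The Trp63 level, as CPM (each gene's count over the library total, scaled to a common total by trimmed-mean factors), was 22.5 to 26.6 in the KO libraries, 493 to 654 in E13 Het and 131 to 300.5 in E9 Het epidermis. Cdh1, an epithelial cadherin, had 529 to 914 CPM in every epidermal library and at most 0.464 CPM in dermis, and Pdgfra, which encodes CD140a, had 11.8 to 94.9 CPM in epidermis and 618 to 904 CPM in dermis. Gene counts summed to 3373819 to 7777808 per epidermal library and to 16931664 to 33386872 per dermal library, and the 68 genes held 0.277% to 0.603% of the epidermal gene counts. Replicate 1 of E13 Het stood apart, with a count for 10765 genes and 22 histone genes at 0, against 8 to 14 at 0 in the other epidermal libraries. Reads that aligned to more than 1 place, which the counting listed apart from the genes, made up 10.5% to 15.9% of the reads in the E9 files, 5.67% to 7.72% in E13 Het and 6.56% to 18.3% in KO. Histone genes include near-identical copies, and the part of this share in their counts was not tested.

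In the GRCm38.p6 annotation of RefSeq, most members lie in the Hist1 cluster on chromosome 13, in stretches of 18 genes (21715711 to 21837530), 5 genes (22035122 to 22043658) and 31 genes (23531044 to 23934913). Hist2 on chromosome 3 holds 10 members, Hist3 on chromosome 11 holds 3 and Hist4 on chromosome 6 holds 1. RefSeq gave a single promoter window, from 250 bases before to 50 bases after the start, for 61 members. Their windows were searched on either strand for 5 short motifs known from histone promoters. Hist1h2be had 2 windows and was left out of the search. The 150 bases upstream of the start are printed here, 5′ to 3′ on the gene's strand, for a leading or called member of each class, for Hist1h1t, whose counts ran against its class, and for Hist4h4. Capitals mark these motifs or their reverse complements, and in Hist1h3i a reversed GGTCCG overlaps a CCAAT. The TATA box was searched as TATAAA and the element bound by the factor NF-Y as CCAAT. The octamer, which Pou2f1 binds, was searched as ATTTGCAT and the AC box of H1 genes as AAACACA. Part of the subtype-specific element of H4 genes was searched as GGTCCG. These windows lie at chr13:23622559-23622708 (-) for Hist1h1e, chr13:23695661-23695810 (+) for Hist1h1t, chr13:21753913-21754062 (-) for Hist1h2ak, chr3:96269550-96269699 (+) for Hist2h2bb, chr13:21783398-21783547 (-) for Hist1h3i, chr13:23581418-23581567 (+) for Hist1h4d and chr6:136804432-136804581 (-) for Hist4h4.
Hist1h1e: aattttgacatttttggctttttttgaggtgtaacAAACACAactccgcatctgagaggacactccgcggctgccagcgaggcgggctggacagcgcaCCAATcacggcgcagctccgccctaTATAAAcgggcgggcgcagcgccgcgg
Hist1h1t: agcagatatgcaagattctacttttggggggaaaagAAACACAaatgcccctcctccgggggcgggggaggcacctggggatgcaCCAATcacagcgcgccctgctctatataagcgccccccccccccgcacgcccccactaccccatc
Hist1h2ak: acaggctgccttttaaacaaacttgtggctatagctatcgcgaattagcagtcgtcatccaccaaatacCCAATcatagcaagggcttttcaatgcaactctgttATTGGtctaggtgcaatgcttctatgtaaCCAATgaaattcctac
Hist2h2bb: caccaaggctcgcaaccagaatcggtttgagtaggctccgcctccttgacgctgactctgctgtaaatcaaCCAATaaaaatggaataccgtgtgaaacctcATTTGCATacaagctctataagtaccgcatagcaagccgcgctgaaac
Hist1h3i: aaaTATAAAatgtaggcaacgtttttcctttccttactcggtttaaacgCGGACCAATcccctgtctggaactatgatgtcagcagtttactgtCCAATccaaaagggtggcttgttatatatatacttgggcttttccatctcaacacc
Hist1h4d: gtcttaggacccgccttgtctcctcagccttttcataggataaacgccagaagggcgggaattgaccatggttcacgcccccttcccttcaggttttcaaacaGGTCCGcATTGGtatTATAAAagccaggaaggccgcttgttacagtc
Hist4h4: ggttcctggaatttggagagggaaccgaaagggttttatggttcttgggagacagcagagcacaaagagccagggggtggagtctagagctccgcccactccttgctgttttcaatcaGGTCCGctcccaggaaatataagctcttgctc

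CCAAT was in every window of the H1 (6), H2A (18), H2B (15) and H3 (10) genes but in 3 of 12 H4 windows, against 37.4% of all 32851 windows in the RefSeq table. ATTTGCAT was in 7 of 18 H2A and 6 of 15 H2B windows and in none of the H1, H3 and H4 windows, against 1.74% of all windows. AAACACA was in 5 of 6 H1 windows, Hist1h1t included, in 2 H2A and in 2 H2B windows (7.18% of all). GGTCCG, a string chosen after the windows had been read, was in 11 of 12 H4 windows, in 1 H2B and in 1 H3 window (8.25% of all). TATAAA was in 35 of the 61 windows (13.6% of all), namely in 4 of 6 H1, 11 of 18 H2A, 8 of 15 H2B, 4 of 10 H3 and 8 of 12 H4 windows. A match is a string of letters and not a shown binding site, and windows of paired or copied genes overlap or repeat each other.

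Several members are near copies. The windows of Hist1h2bq and Hist1h2br shared all 300 bases, those of Hist1h4m and Hist1h4n an unbroken 285, Hist2h3c1 and Hist2h3c2 231, Hist2h2aa1 and Hist2h2aa2 219, and Hist1h2ao and Hist1h2ap 200. Of the 8 genes at 0 in all 12 libraries, 7 belong to such a pair (Hist1h2ao, Hist1h2ap, Hist1h2bq, Hist1h2br, Hist1h4m, Hist2h2aa1 and Hist2h2aa2), and the remaining gene is Hist1h2aa. Counts of these genes are uncertain, because reads that fit either copy may have been left out, and a 0 there does not show that the gene was silent. Of the 38 epidermal counts of Hist2h3c1, 32 came from E13 Het replicate 3, and of the 28 of its near copy Hist2h3c2, 26 came from KO replicate 3.

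Levels were spread unevenly within each class. Hist2h2bb, an H2B gene of the Hist2 cluster, had the highest level of all, 621 CPM on average over the 9 libraries and 1259 CPM per kilobase of gene span. It made 40.2% to 63.8% of the H2B counts in each epidermal library. Per kilobase the next members were Hist1h1e (545 CPM), Hist1h1d (487 CPM) and Hist1h1c (411 CPM) among the H1 genes, Hist2h2ac (397 CPM), Hist1h2ak (312 CPM) and Hist3h2a (220 CPM) among the H2A genes, and Hist1h4d (340 CPM), Hist1h4h (217 CPM) and Hist4h4 (210 CPM) among the H4 genes. The leading H3 genes were lower than these, with Hist1h3c at 171, Hist1h3e at 111 and Hist1h3d at 106 CPM per kilobase. In H2B, Hist1h2bm (149) and Hist1h2bb (121) followed far behind Hist2h2bb. The 3 leading genes together made 72.6% to 81.6% of H1, 60.8% to 76.8% of H2A, 52.6% to 74.5% of H2B, 48.2% to 65.3% of H3 and 41.0% to 55.7% of H4 counts.

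**Figure D1:**
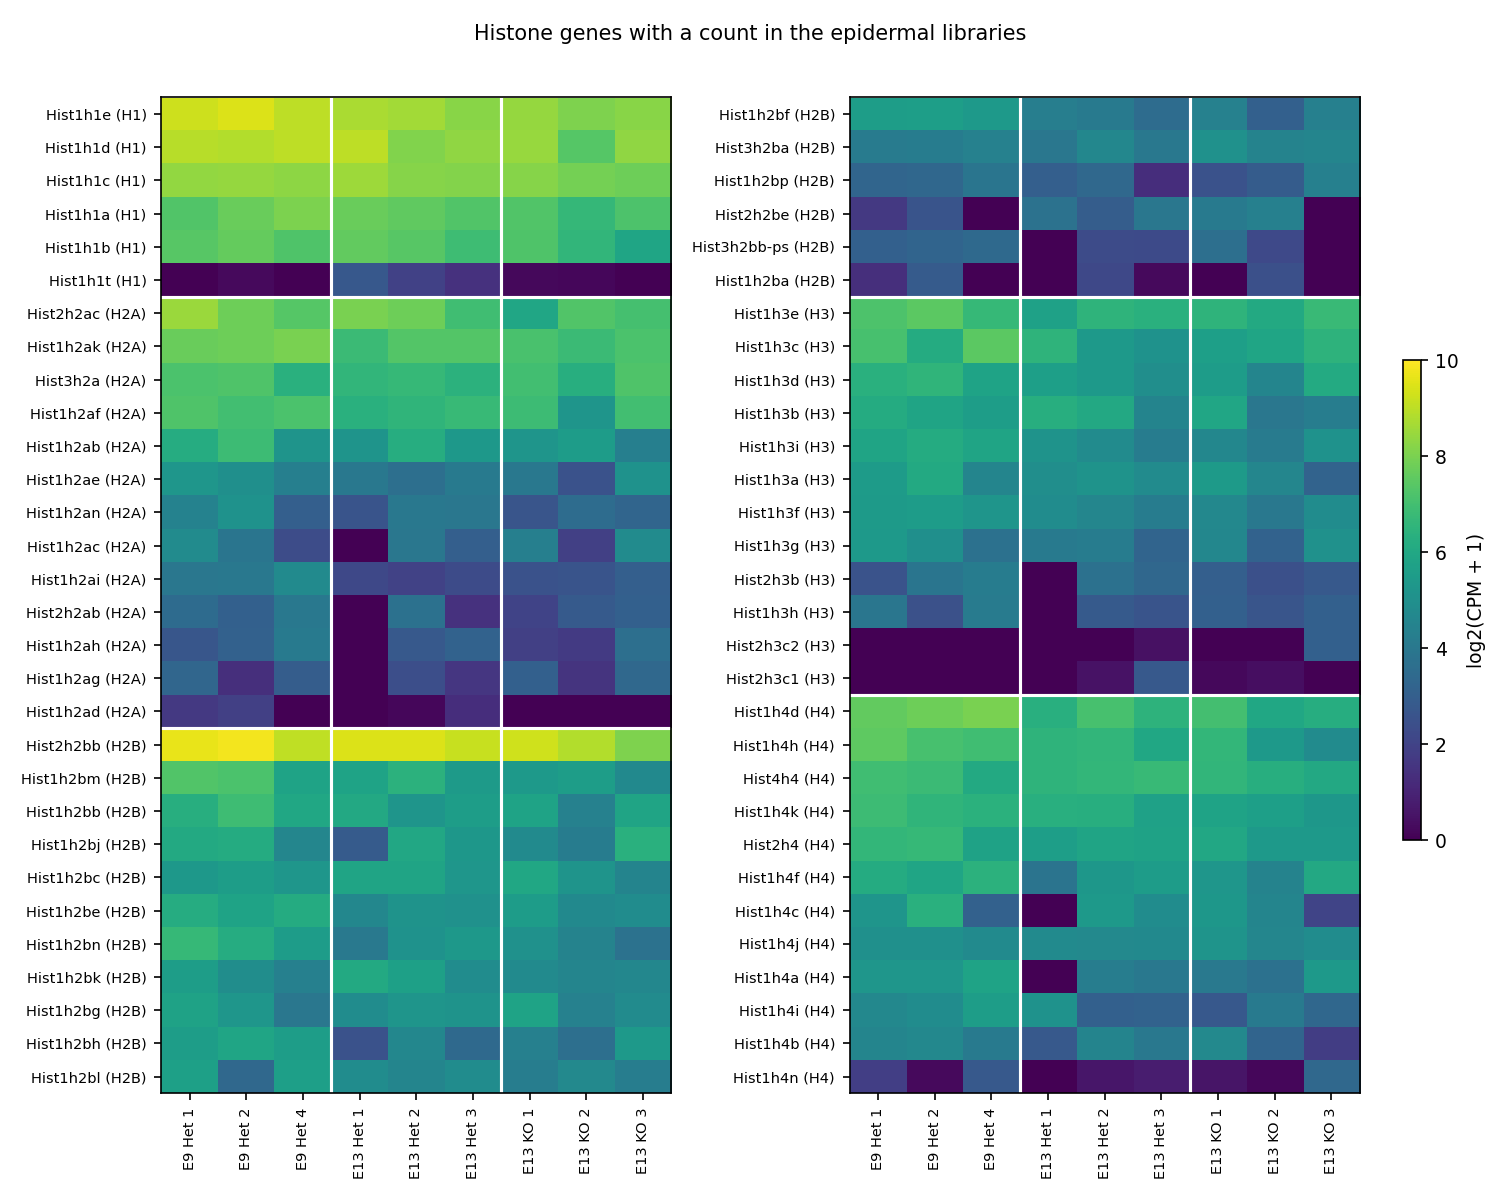
Level of each of the 60 histone genes counted in epidermis, as log2(CPM + 1) by colour, with 1 column per library and rows ordered by class and mean level. Hist2h2bb and the H1 genes Hist1h1e, Hist1h1d and Hist1h1c form the brightest rows, and E13 Het replicate 1 has the most dark cells among genes counted elsewhere.

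H2A and H2B genes often sit head to head and share the DNA between their starts. Among the members whose strand was known from a promoter window, 10 such pairs had gaps of 163 to 280 bases. Members without a window, such as Hist2h2be beside Hist2h2ac and Hist1h2bc beside Hist1h2ac, had no strand and were not paired, so further pairs may exist. Levels within a pair could be far apart. Per kilobase of span, Hist1h2ak averaged 312 CPM and its partner Hist1h2bn 87.1 CPM, and in CPM it was above the partner in 9 of 9 epidermal libraries. In other pairs the H2B gene led. Hist1h2bj averaged 94.0 CPM per kilobase against 9.86 for Hist1h2ag, Hist1h2bk 69.3 against 12.8 for Hist1h2ah, and Hist1h2bf 56.0 against 1.34 for Hist1h2ad, each above its partner in CPM in 9 of 9 libraries. No test was made of the pairs.

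Summed over all 68 genes, histone counts were highest at E9. The sums were 5983, 6033 and 4933 CPM in the E9 Het libraries, 4253, 4208 and 3445 CPM in E13 Het and 3859, 2693 and 3176 CPM in E13 KO. Every E9 library was above every E13 library, while E13 Het and KO overlapped. The means were 5650 ± 621 CPM at E9, 3969 ± 454 CPM in E13 Het and 3243 ± 586 CPM in KO (SD, n = 3 each), so that E13 Het stood at 70.2% and KO at 57.4% of the E9 mean. In bulk samples fewer cells in S phase and less histone RNA per cell cannot be told apart.

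By class, E13 Het was below E9 for H1 (log2 ratio of group means -0.37), H2A (-0.57), H3 (-0.87) and H4 (-0.76) without overlap of libraries. The H2B sums overlapped between these groups (-0.38), because E9 replicate 4, at 1040 CPM, fell among the E13 Het values of 1105, 1218 and 955 CPM. The largest log2 ratio was that of the H3 sums, with 633, 627 and 540 CPM at E9 and 374, 357 and 255 CPM in E13 Het. KO stood below E9 in H1 (-0.77), H2A (-0.74), H3 (-0.84) and H4 (-0.97) without overlap, and in H2B (-0.77) with overlap. Between KO and E13 Het all 5 class sums overlapped, with log2 ratios of -0.39 (H1), -0.18 (H2A), -0.39 (H2B), 0.03 (H3) and -0.21 (H4).

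**Figure D2:**
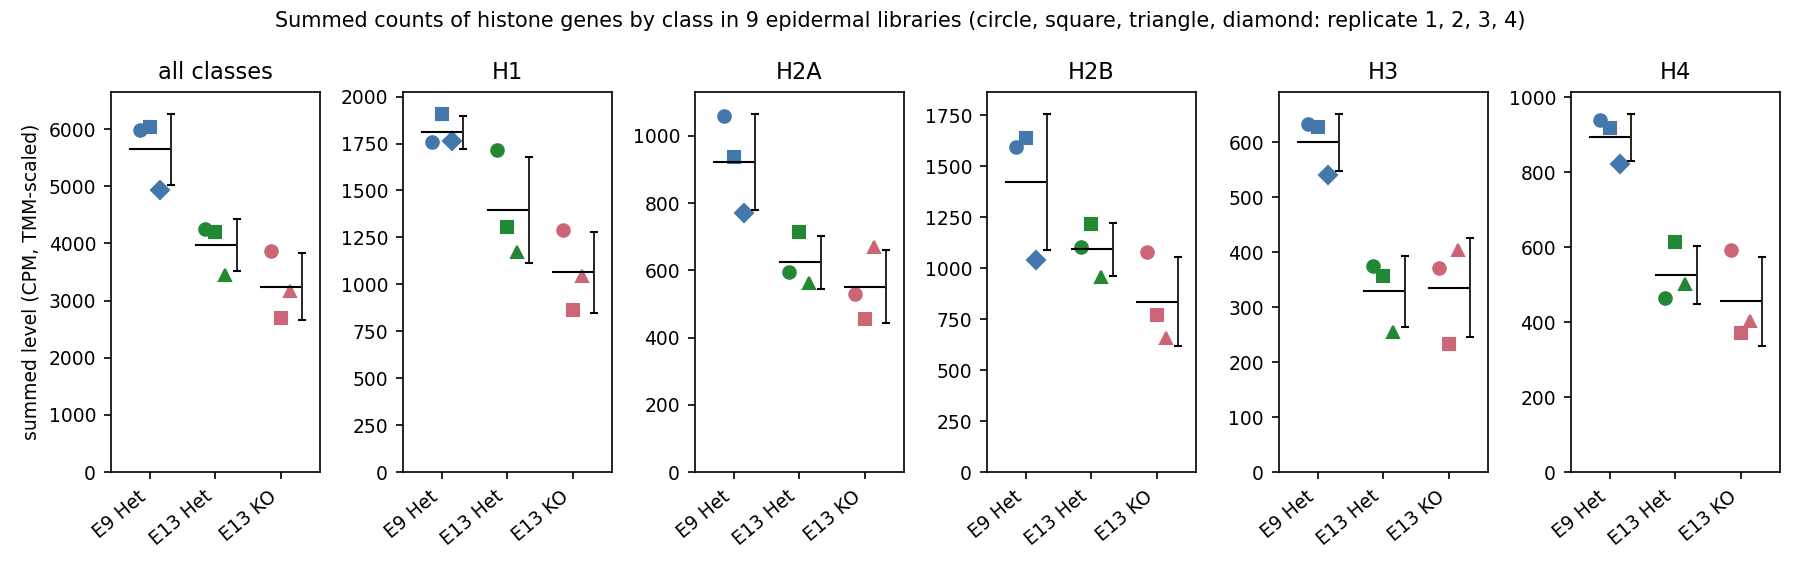
Summed level of all members and of each class (CPM, y axes from 0) in each epidermal library, with 1 symbol per library, the group mean as a line and its SD as a bar. The E9 libraries lie above all E13 libraries in the sum of all classes and in H1, H2A, H3 and H4, and the E13 Het and KO libraries overlap in every panel.

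As shares of all histone counts, H1 held 32.2% ± 3.21 at E9, 35.1% ± 4.72 in E13 Het and 32.7% ± 0.699 in KO. H3 held 10.6% ± 0.277 at E9, 8.23% ± 0.734 in E13 Het and 10.3% ± 2.13 in KO, the E9 and E13 Het libraries being apart (10.4% or more against 8.80% or less). The H4 share was also apart between these groups, at 15.2% to 16.6% at E9 and 10.9% to 14.6% in E13 Het, with 12.7% to 15.3% in KO. The H1, H2A and H2B shares overlapped between E9 and E13 Het. No test was made of the shares. By cluster, the Hist2 sum was 762, 688 and 456 CPM in KO against 1016, 1021 and 780 CPM in E13 Het, the sole cluster whose libraries did not overlap between KO and E13 Het (log2 ratio -0.56). Most of that sum is Hist2h2bb and Hist2h2ac, and neither passed the test, as given next. The single Hist4 gene, Hist4h4, had 120, 112 and 66.3 CPM at E9 and 90.9, 97.2 and 107 CPM in E13 Het. These overlapped, with a log2 ratio of -0.02 that rests on the low E9 replicate 4.

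Single genes were tested with edgeR's quasi-likelihood test in 1 fit of the 9 epidermal libraries, with Benjamini-Hochberg adjustment over all 13052 genes tested and a threshold of 0.05. Of the members 56 passed the filter on low counts, and 12 did not: the 8 at 0 and Hist1h1t, Hist1h2ad, Hist2h3c1 and Hist2h3c2. A member counted in 1 group alone can pass that filter through that group, so counts over the 56 describe them and support nothing further. The comparisons of E13 Het and of KO with E9 share the E9 libraries, and those of KO with E13 Het and of E13 Het with E9 share the E13 Het libraries.

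Between E13 Het and E9 epidermis, 3 histone genes were lower at E13 and 0 were higher, where 7.29% of all genes tested passed in either direction and 2.53% were lower. They come from different classes: Hist1h1e (linker histone), Hist1h4d (H4) and Hist1h2ak (H2A). Hist1h1e had 608, 705 and 517 CPM at E9 and 427, 387 and 296 CPM in E13 Het, every E9 library above every E13 library. It fell by 0.72 ± 0.17 on the log2 scale (adjusted p = 0.0176). Hist1h4d had 194.5, 218 and 253 CPM at E9 and 78.4, 136 and 87.6 CPM in E13 Het, again without overlap. Its log2 fold change was -1.14 ± 0.28 (adjusted p = 0.0240). Hist1h2ak, the H2A gene of the head-to-head pair described above, had 209, 220 and 255.5 CPM at E9 and 110, 161 and 158 CPM in E13 Het, with a log2 fold change of -0.67 ± 0.19 (adjusted p = 0.0467).

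The other members mostly lay on the same side without passing. Of the 56 tested, 53 had a log2 fold change below 0 between E13 Het and E9, where 50.1% of all genes did, and 17 were lower at an unadjusted p under 0.05 (8.01% of all genes). In 20 the libraries were lower without overlap (13.9% of all genes) and in 1 higher (15% of all). The median was -0.80, against -0.0019 over all genes tested. Of the 60 members with a count, the mean was lower at E13 for 54 and higher for 6. By class the medians were -0.17 for H1, -0.91 for H2A, -0.79 for H2B, -0.94 for H3 and -0.83 for H4, so H1 genes lay nearest to 0. Hist1h1c shows this: 334, 344 and 315 CPM at E9 and 370, 288 and 283 CPM in E13 Het overlapped (-0.08 ± 0.16, adjusted p = 0.869). The overlap came from replicate 1 of E13 Het (370 CPM), the library that stood apart. The log2 ratio of the H1 sums, -0.37, ranged from -0.55 to -0.26 when 1 library was left out. Hist2h2bb, the leading H2B gene, had 808, 909.5 and 533 CPM at E9 and 705, 714.5 and 574.5 CPM in E13 Het, which overlapped too (-0.18 ± 0.28, adjusted p = 0.830).

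Within H3, no gene passed, although the class sum had the largest log2 ratio. Hist1h3e came nearest, with 148, 176 and 102 CPM at E9 and 52.2, 89.4 and 79.4 CPM in E13 Het (-0.94 ± 0.27, adjusted p = 0.0512). All 10 tested H3 genes were below 0, from -1.66 to -0.10. How many members passed depended on the model: DESeq2 called 13, limma voom 17 and edgeR with all 12 libraries in 1 fit 0, and without E9 replicate 2 edgeR called 0. Leaving out both shallow libraries, replicate 1 of E13 Het and replicate 3 of KO, gave 8. Hist1h1e kept its call in 5 of 6 refits without 1 library, Hist1h4d in 2 and Hist1h2ak in 1.

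**Figure D3:**
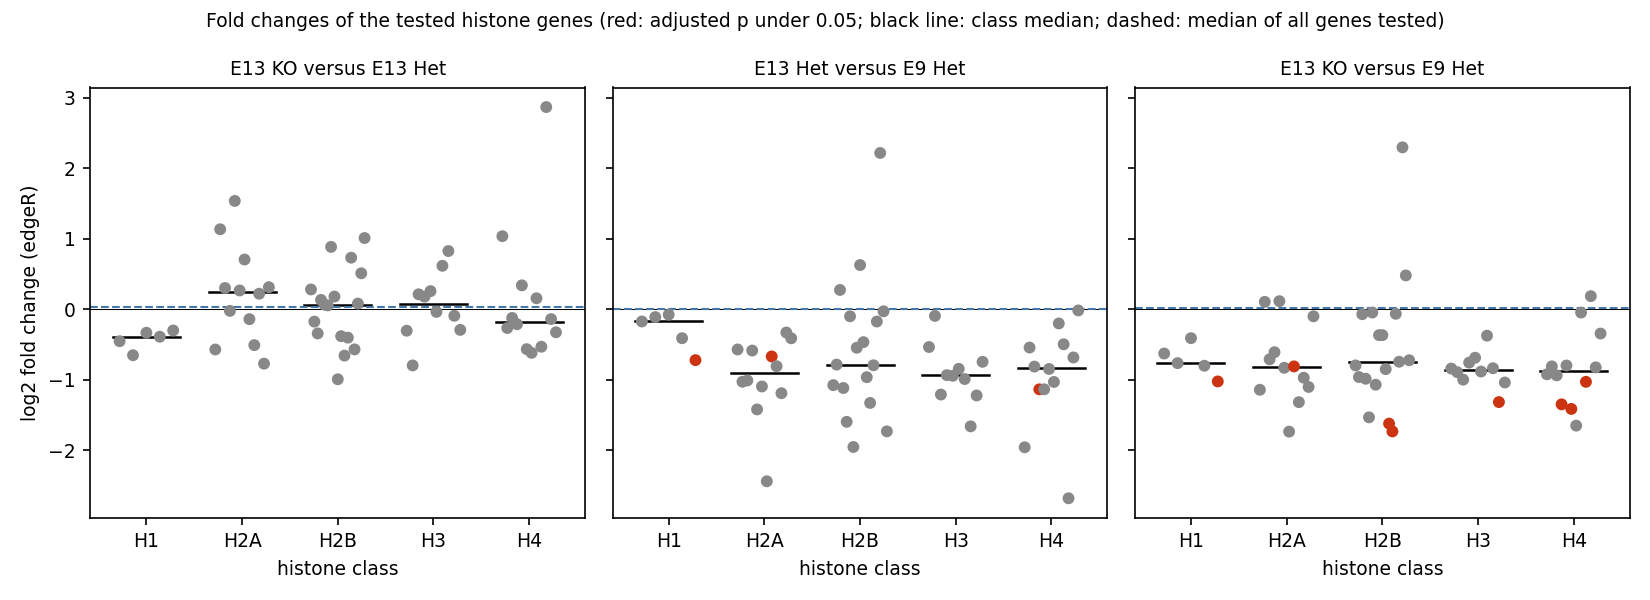
Log2 fold change (y axis) of each tested histone gene by class (x axis) in the 3 epidermal comparisons, with calls in red, the class median as a black line and the median of all genes tested as a dashed line. Class medians lie below the dashed line in the comparisons with E9, and lie near it between KO and E13 Het with H1 lowest.

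Between KO and E9 epidermis, 8 histone genes were lower in KO and 0 were higher, where 7.67% of all genes passed and 3.05% were lower. The 3 genes named above were among them. In KO, Hist1h1e had 341, 264 and 294.5 CPM, a log2 fold change against E9 of -1.02 ± 0.17 (adjusted p = 0.00172). Hist1h4d had 127, 60.4 and 73.4 CPM (-1.35 ± 0.28, adjusted p = 0.00876), and Hist1h2ak 138, 111 and 141 CPM (-0.81 ± 0.19, adjusted p = 0.0171). None of these libraries reached the E9 values, and Hist1h1e and Hist1h4d kept their calls in all 6 refits without 1 library.

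The further calls were in H2B, H3 and H4. Hist1h2bn, the H2B partner of Hist1h2ak, had 103, 72.8 and 45.02 CPM at E9 and 32.3, 21.3 and 12.5 CPM in KO (-1.73 ± 0.45, adjusted p = 0.0286). Hist1h2bm had 153, 144 and 54.9 CPM at E9 and 41.4, 46.7 and 25.9 CPM in KO (-1.62 ± 0.39, adjusted p = 0.0207). In either gene E9 replicate 4 was the lowest E9 library and still above every KO library. Hist1h3i was the H3 gene to pass (-1.32 ± 0.37, adjusted p = 0.0425), with 55.5 to 71.1 CPM at E9 and 16.8 to 33 CPM in KO. Hist1h4k (-1.03 ± 0.26, adjusted p = 0.0246) and Hist1h4h (-1.41 ± 0.39, adjusted p = 0.0453) passed in H4. These 5 kept their calls in 1 or 2 of 6 refits without 1 library, and the number of histone genes called ranged from 2 without E9 replicate 2, through 3 without E9 replicate 1 or KO replicate 2 and 4 without KO replicate 3, to 7. With all 12 libraries in 1 fit it was 1.

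Over the 56 tested members, 51 were below 0 between KO and E9, where 49.2% of all genes were, and 23 were lower at an unadjusted p under 0.05 (8.96% of all genes). In 19 the libraries were lower without overlap (15.5% of all genes) and in 1 higher (16.5% of all). The median was -0.82, and by class -0.77 for H1, -0.82 for H2A, -0.75 for H2B, -0.86 for H3 and -0.87 for H4. Of the 60 members with a count, the mean was lower in KO for 52 and higher for 8.

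Between KO and E13 Het epidermis, 0 of the 56 histone genes passed, where 2.2% of all genes did. DESeq2 and limma voom called 0 as well, and at an unadjusted p under 0.05 there were 2, Hist1h2bk and Hist1h1b, where 11.4% of all genes tested passed. Libraries were lower without overlap in 1 tested member (9.78% of all genes) and higher in 1 (10.3%). Hist1h2bk had 66.7, 50.1 and 28.4 CPM in E13 Het and 26.5, 22.4 and 23.9 CPM in KO, without overlap (-0.99 ± 0.41, adjusted p = 0.338). Hist1h1b had 195, 169 and 117 CPM in E13 Het and 151, 95.6 and 58.6 CPM in KO, which overlapped (-0.65 ± 0.29, adjusted p = 0.412). The other gene with the smallest p was Hist1h1c, with 289, 238 and 219 CPM in KO (-0.33 ± 0.16, adjusted p = 0.441). All 5 tested H1 genes were below 0, from -0.65 to -0.30. Over all classes 30 of 56 were below 0, against 48.1% of all genes, with a median of -0.07. The 2 leading Hist2 genes, Hist2h2bb (-0.57 ± 0.28, adjusted p = 0.497) and Hist2h2ac (-0.77 ± 0.41, adjusted p = 0.557), were lower on average and not called. A p that misses the threshold does not show that KO and Het levels are alike.

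A few members ran against the rest and are named here after their values were seen. Hist1h1t, the testis H1 gene, had 23, 21 and 9 counts in E13 Het against 1 count over the 3 E9 libraries and 2 over the 3 KO libraries. The level in E13 Het was 49.3 times that of E9 (95% exact counting interval 8.47 to 1983) and 26.0 times that of KO (6.85 to 220), and these intervals cover counting error only. In a fit with no filter it did not pass (adjusted p = 0.352 against E9 and 0.684 for KO against E13 Het). Hist2h2be, an H2B gene, had 2.14, 4.98 and 0 CPM at E9, 12.5, 6.74 and 14.4 CPM in E13 Het and 15.9, 19.4 and 0 CPM in KO. Its E13 Het libraries were all above E9, and it was not called (2.22 ± 1.49, adjusted p = 0.479). Hist3h2ba was higher in KO than at E9 without overlap, at 32.5, 21.3 and 22.2 against 16.8, 17.4 and 20.3 CPM (0.48 ± 0.45, adjusted p = 0.640). Hist1h2ai was higher in KO than in E13 Het without overlap, at 4.71, 4.996 and 7.11 against 3.50, 2.91 and 3.88 CPM, and was not called.

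Few genes that act on histone mRNA or on histone gene transcription passed. In the list of histone mRNA 3-prime end processing and decay, 1 of 22 tested genes rose and 0 fell in E13 Het and in KO against E9, where 4.77% and 4.62% of all genes tested rose. It was Zcchc6, a terminal uridylyltransferase, at 0.91 ± 0.21 (adjusted p = 0.0169) and 0.996 ± 0.212 (adjusted p = 0.00948). Slbp had 88.8 to 133 CPM at E9, 89.4 to 122 CPM in E13 Het and 84.5 to 116 CPM in KO, with overlap throughout. Among 16 regulators of histone gene transcription, 1 fell in each comparison with E9, Pou2f1, the octamer-binding factor (-0.66 ± 0.18, adjusted p = 0.0377, in E13 Het and -0.84 ± 0.18, adjusted p = 0.0101, in KO). Npat had 122, 112 and 115 CPM at E9, 38.2, 110 and 112 CPM in E13 Het and 114, 134 and 68.9 CPM in KO. The low values stood in the 2 libraries in which 10765 and 11275 genes had a count, the fewest of the epidermal libraries, and Npat was not called (KO against E13 Het, adjusted p = 0.878).

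Replacement histones, which are made outside S phase as well, and chaperones were tested in the same fit, in which 2.53% of all genes fell in E13 Het and 3.05% in KO against E9. Of 11 replacement histone genes, 1 fell in E13 Het against E9, H2afx, the H2A variant of DNA damage signalling (-0.76 ± 0.20, adjusted p = 0.0308). In KO against E9, 3 fell: H2afx, Cenpa of the centromere (-1.10 ± 0.30, adjusted p = 0.0410) and H2afz (-0.57 ± 0.16, adjusted p = 0.0461). Of 22 chaperone genes, 2 fell and 1 rose in E13 Het, and 4 fell and 1 rose in KO, both against E9. Nasp, a chaperone of H1 and H3, fell by 0.75 ± 0.20 (adjusted p = 0.0308) and by 1.13 ± 0.20 (adjusted p = 0.00252), and Npm1 fell as well, whereas Atrx, a chromatin remodeller that acts in H3.3 deposition, rose by 0.57 ± 0.16 (adjusted p = 0.0479) and 0.62 ± 0.16 (adjusted p = 0.0307). Between KO and E13 Het none of these 4 lists had a call.

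Cell cycle genes, other RNAs that lack poly(A) tails and markers of cell types also differed in summed level between the groups, and their part in the histone results was not tested. The shares of all genes that fell or rose against E9, given above, apply to the counts of these lists against E9. Of 32 S phase genes, 0 passed between E13 Het and E9 and 5 fell in KO against E9, Cdca7, Lig1, Fen1, Mcm3 and, named after its value was seen, Mcm5. Their summed level was 4312 to 4727 CPM at E9, 3682 to 4534 CPM in E13 Het and 3358 to 3416 CPM in KO. Of 18 mitosis genes, 4 fell in E13 Het (Cdc20, Ccnb1, Bub1 and Ube2c) and 6 in KO, against E9. The other RNAs without poly(A) tails, such as Rmrp and Rpph1, summed to 2871 to 4137 CPM at E9, 1026 to 2842 CPM in E13 Het and 1847 to 2371 CPM in KO, and 0 of 12 tested passed in these comparisons. The lowest of these sums, 1026 CPM, was in E13 Het replicate 1, where 10 of the 17 listed RNAs were at 0. Dermal mesenchyme markers included 3 of 13 tested that rose in E13 Het (Postn, Dcn and Vim) and 4 in KO (also Col3a1) against E9. Their sum was 285 to 403 CPM at E9, with Twist2, Lum, Dcn and Dpt at 0 in all 3 libraries, 1054 to 2217 CPM in E13 Het and 1803 to 3063 CPM in KO, against 33827 to 41981 CPM in dermis.

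Epidermis markers summed to 3268 to 3373 CPM at E9, 6261 to 8260 CPM in E13 Het and 4220 to 5442 CPM in KO, without overlap between any of the 3 groups. Of 13 tested, 4 rose and 0 fell in E13 Het against E9, and 3 rose and 0 fell in KO against E9. Between KO and E13 Het, 3 fell and 1 rose, where 2.2% of all genes tested passed in either direction. Neuron markers summed to 91.8 to 146 CPM at E9, 41.2 to 136 CPM in E13 Het and 216 to 283 CPM in KO, the KO libraries being above all other epidermal ones. Of 8 tested, 1 rose in KO against E13 Het, Map2, which encodes a microtubule protein of dendrites (2.99 ± 0.66, adjusted p = 0.0408). The part of these markers in the histone results was not tested either.

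**Figure D4:**
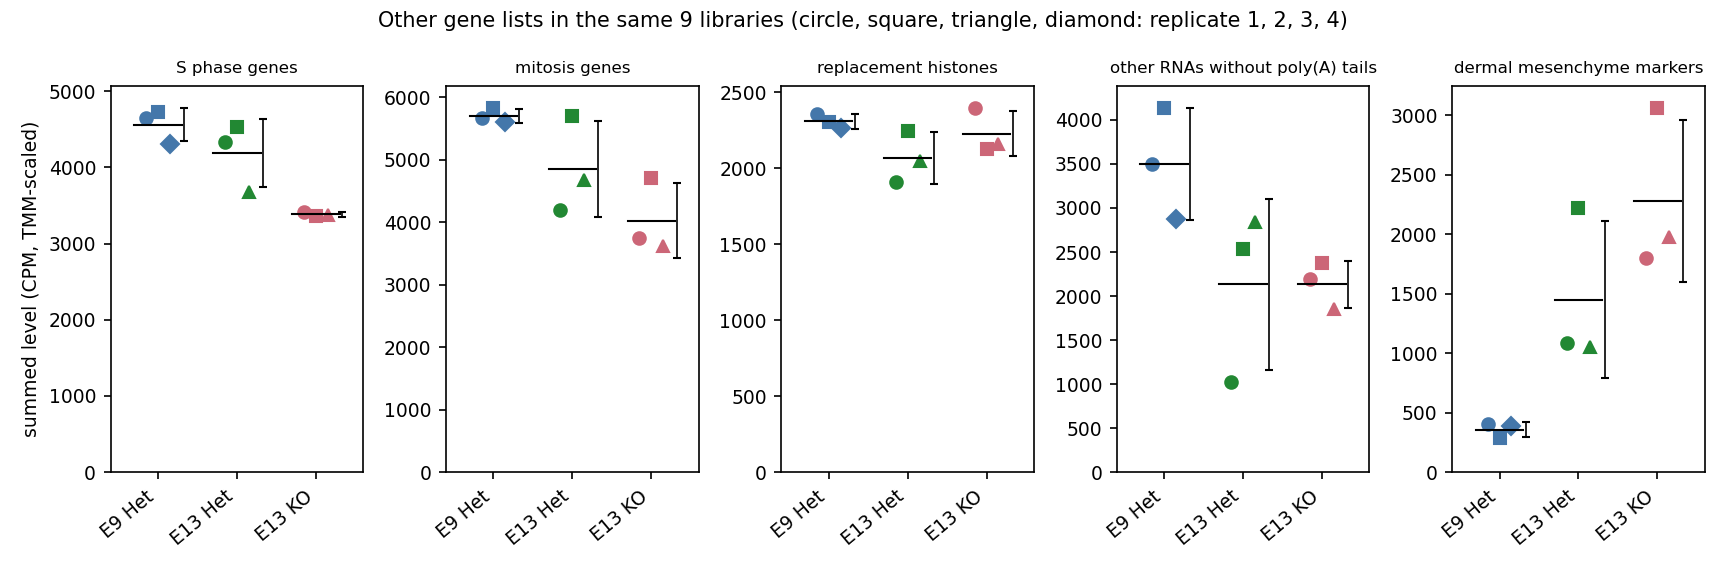
Summed levels (CPM, y axes from 0) of 5 other gene lists in the 9 epidermal libraries, with 1 symbol per library, the mean as a line and the SD as a bar. S phase genes, mitosis genes, replacement histones and other RNAs without poly(A) tails are highest at E9 on average, as are the histone sums. Dermal mesenchyme markers are lowest at E9.

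Dermis was compared with epidermis at E13, both Het, in a separate fit of 6 libraries, and there tissue and library preparation cannot be told apart. Histone counts were far lower in the oligo(dT)-selected dermal libraries, at 54.3, 232 and 84.9 CPM against 3432, 3673 and 2929 CPM in epidermis on the scale of that fit, a ratio of means of 27.0. Dermal replicate 2 held most of the dermal histone level, and without it the ratio was 48.1. Rn45s, the ribosomal precursor RNA, made 11.2%, 30.7% and 19.1% of the gene counts in dermal replicates 1, 2 and 3. In the 9 epidermal libraries it made 2.90% to 9.69%. The part of such carried-over RNA in the dermal histone levels was not tested. Of 49 members tested, 39 were higher in epidermis and 0 lower, where 34.7% of all 12975 genes passed and 16.5% were higher. In 44 the epidermal libraries were higher without overlap, as in 24.5% of all genes. A member high in epidermis alone can pass the filter through that group, so these counts describe the 49 and support nothing further. The median log2 difference was 4.50 against -0.13 over all genes, and 6.26 without dermal replicate 2. Of the 17 other RNAs without poly(A) tails, 6 were tested, and all 6 were called higher in epidermis, with a median of 7.93. They too can pass the filter through epidermis alone, so this count and median support nothing further.

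The gap differed among members. Hist2h2bb had 569, 624 and 488 CPM in epidermis and 0.309, 1.48 and 0.950 CPM in dermis, a log2 difference of 9.31 ± 0.47 (adjusted p = 2.39e-05). Hist4h4 had 73.3, 84.9 and 91.1 CPM in epidermis and 2, 0 and 0 counts in dermis. The ratio of summed counts was 2562 (95% exact interval 708 to 21170, for counting error only), and the gene was called (adjusted p = 2.58e-05). Hist1h1c had 298, 251 and 241 against 4.54, 13.1 and 10.2 CPM (4.83 ± 0.39, adjusted p = 0.000105), Hist1h2ak 89.1, 141 and 134 against 1.03, 2.23 and 0.475 CPM (adjusted p = 0.000122), and Hist3h2a 77.2, 88.7 and 71.6 against 4.90, 9.65 and 8.92 CPM (3.34 ± 0.32, adjusted p = 0.000195).

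All 6 tested H1 and all 8 tested H3 genes were called, with 7 of 9 H2A, 11 of 15 H2B and 7 of 11 H4 genes. The called H1 genes include Hist1h1t, which had no count in dermis. By class the ratio of mean sums ran from 20.6 (H1) through 27.1 (H4), 27.7 (H3) and 32.1 (H2A) to 38.3 (H2B), and it was 141 for the Hist2 cluster. That order did not hold without dermal replicate 2, where the ratios were 31.2 (H3), 42.5 (H2A), 45.8 (H1), 56.9 (H4) and 62.04 (H2B), with 217 for the Hist2 cluster. Per kilobase of gene span the highest mean levels in dermis were those of Hist1h1e (28.2 CPM), Hist1h1d (19.4 CPM), Hist3h2a (15.4 CPM), Hist1h4i (15.3 CPM), Hist1h1c (12.8 CPM) and Hist1h1b (10.1 CPM). Members spanning 1000 bases or more had no per-kilobase level. Among them, Hist1h2bc, Hist1h2be and Hist2h2be made 18.3%, 15.4% and 13.1% of the dermal H2B counts on average. Nearest to equal among the tested members was the H4 gene Hist1h4i, named after its values were seen, at 26.8, 6.34 and 6.75 CPM in epidermis and 4.23, 10.3 and 3.93 CPM in dermis, which overlapped (1.11 ± 0.79, adjusted p = 0.314).

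**Figure D5:**
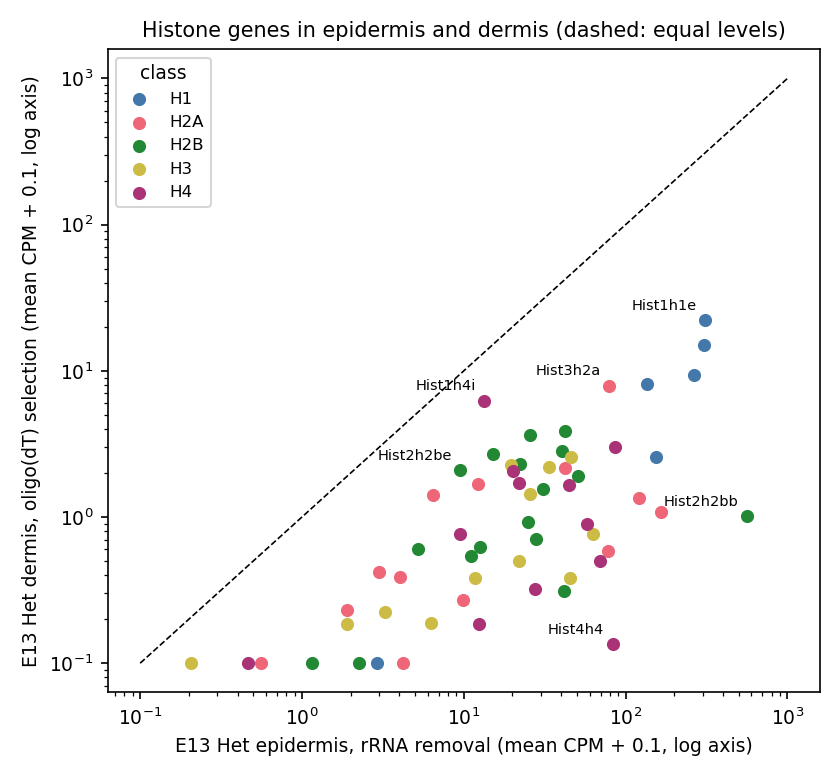
Mean level of each histone gene in E13 Het dermis (y axis) against E13 Het epidermis (x axis), in CPM plus 0.1 on log axes, coloured by class. The genes lie below the dashed line of equal levels, with Hist1h4i the nearest of those tested and Hist2h2bb and Hist4h4 among the farthest.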

How the data were processed

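RNA was measured in 12 libraries. The deposited values are raw read counts per gene symbol, 1 file per library. TopHat2, Bowtie2 and HTSeq are listed with mm10, per the submitters' processing notes. Their versions, the strand setting and the rule for reads that fit several places were not given in the sources used here. From each file, 5 HTSeq summary lines stayed out of the totals.

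Counts were fitted with edgeR 4.0.16 (R 4.3.3, limma 3.58.1): filterByExpr, TMM factors, robust quasi-likelihood test and Benjamini-Hochberg adjustment over all genes tested, with a threshold of 0.05. One fit held the 9 epidermal libraries and another the 6 E13 Het libraries of epidermis and dermis. Values after ± are SE for log2 fold changes and SD for levels. Class sums add TMM-scaled CPM over members and have no test. Alternatives included DESeq2 1.42.0 and limma voom, the latter with sample quality weights. The fit was tested on simulated data.

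Named were the 3 highest members per class, called members, the 3 with the smallest p per comparison, up to 5 called and the 5 highest in dermis, and up to 4 called genes per other list. The members and lists were chosen with earlier results of these data known. Between genes, levels were compared per kilobase of RefSeq span, for members spanning less than 1000 bases. The ATAC and ChIP libraries were not used here.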

Additional observations from a re-analysis of the deposited data

How the results depend on the processing

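All 216 alternative values of the summed epidermal levels stayed within the spread between replicates, and 4 of them differed in sign from the reported value. All 4 were of the KO against E13 Het log2 ratio of the H3 sum (0.03), which ranged from -0.12 to 0.24 when 1 library was left out, so that no direction is given for it. The median log2 fold change of the histone genes between KO and E13 Het (-0.07) ranged from -0.29 to 0.03, the last without E13 Het replicate 2. No gene among the 19 refitted gene results changed sign. The number of histone genes called between KO and E13 Het was 0 in every setting run. Between E13 Het and E9 (3 by the reported fit) it was 13 with DESeq2, 17 with limma voom and 7 with RLE size factors. It was 9 with no filter and 6 with a mean of at least 5 CPM. With Rn45s, Lars2 and the listed RNAs without poly(A) tails left out of the totals it was 6. With all 12 libraries it was 0, and with the 2 groups alone 5. It was 8 without E13 Het replicate 1 and KO replicate 3, and 0 to 4 without 1 library. Between KO and E9 (8) it was 19 with DESeq2, 30 with limma voom, 1 with all 12 libraries, and 2 to 7 without 1 library. Between epidermis and dermis (39) it was 30 to 40 without 1 library, and their median log2 difference (4.50) was 5.97 with limma voom. In refits chosen after seeing the data, the ratio of mean sums between these tissues ranged without 1 library from 21.1 to 48.1 for all classes, 15.1 to 45.8 for H1, 28.6 to 42.5 for H2A, 30.4 to 62.04 for H2B, 24.9 to 31.2 for H3, 21.1 to 56.9 for H4 and 109 to 217 for the Hist2 cluster. Over all genes, calls between KO and E13 Het (287) numbered 811 with DESeq2, 635 with limma voom and 182 to 348 without 1 library. Between E13 Het and E9 (952) they numbered 1997, 1692 and 569 to 812, between KO and E9 (1001) 2172, 2563 and 557 to 815, and between epidermis and dermis (4504) 2934 to 5269 without 1 library. Of the alternatives for named genes, 59 lost the call and 235 did not change it. All the losses were among the genes called against E9. The 235 include the genes followed between KO and E13 Het, which had no call to lose, and those of the dermis comparison, which always kept theirs. The cause of these differences was not tested.

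Whether replicate numbers pair the samples is not settled. Deviations of same-numbered KO and E13 Het libraries correlated at -0.02, 0.20 and -0.03, and those of differently numbered ones at -0.11 to 0.08. With 3 libraries per group these values cannot decide it. With the replicate block, 0 histone genes were called between KO and E13 Het (286 genes in all), 2 between E13 Het and E9 (576), 3 between KO and E9 (540) and 32 between epidermis and dermis (3464).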
